A study of Mus musculus with 18 samples.

Results

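The genes described here were 38 genes of the interferon response and of antigen presentation, of the 14451 genes in the table of normalized values. They were taken by gene symbol, and each symbol had 1 row. They fall into 6 roles, with 2 receptor chains, 2 sensors of viral RNA, 6 transcription factors, 14 antiviral effectors, 7 GTPases and 7 genes of class I antigen presentation. The samples were whole livers of male WT mice of 8 to 9 weeks of age, kept in cycles of 12 h of light and 12 h of dark. Livers were taken at 6 zeitgeber times (ZT, hours after lights on), namely ZT1, ZT5 and ZT9 in the light and ZT13, ZT17 and ZT21 in the dark, with 3 mice per time and 18 in all. The 3 mice were those with the best RNA of the 5 taken per time, no mouse was treated, and the labels give the time of day as the only difference between the groups.

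Interferons are secreted proteins that warn cells of a virus. Type I interferons bind a receptor that holds IFNAR1 and activate a factor that holds STAT2 and IRF9, whereas interferon gamma binds a receptor that holds IFNGR1, and both raise the transcription of a large set of interferon-stimulated genes, many of which keep a low level of expression without infection. Antigen presentation by MHC class I shows peptides from inside the cell to CD8+ T cells, and needs a heavy chain such as H2-K1 or H2-D1, the light chain B2m, and the peptide transporter and its partners. In the liver these genes are active in hepatocytes and also in Kupffer cells, the resident macrophages, and in endothelial cells.

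The deposited table gives a linear signal, the estimated reads of a gene plus a small offset, scaled to a normalized library size, which is called the normalized value below. These values are not divided by gene length, so levels are compared between livers and not between genes. Depth, worked out from the values on the reading that they are estimated counts plus an offset over a library size, was 10268168 to 23242842 estimated reads per liver, and 1 read was worth 0.0416 to 0.0956 of a normalized value. No member was at the floor in any liver, and the fewest estimated reads behind a member in a liver were 22, for Oas2. The time labels were checked on 4 clock genes (Arntl, Nr1d1, Per2 and Dbp), on which 17 of the 18 livers were nearest to the mean of their own time. The exception was replicate 3 of ZT5, which was the deepest library and was nearest to ZT9, so the leading counts below are given with and without it. Hepatocyte markers were at summed values of 71622 to 76065 at ZT9 and 88322 to 100691 at ZT17, the times of the lowest and the highest mean, so hepatocyte transcripts were present in every liver.

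**Figure D1:**
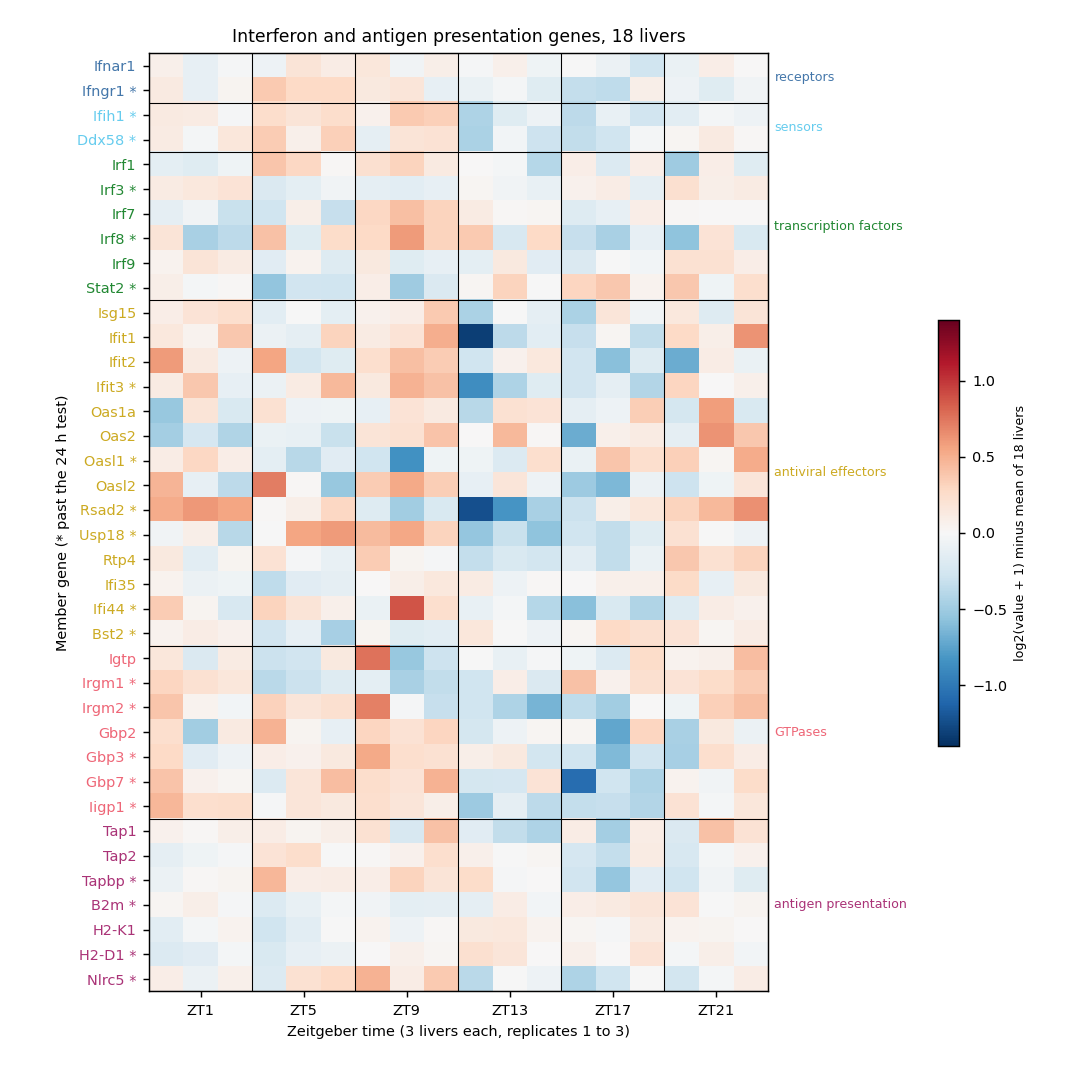
Normalized values of the 38 members in the 18 livers, as log2(value + 1) minus the gene's mean over all livers. Rows are genes ordered by role, columns are livers ordered by ZT, red is above the mean and blue below it, and * marks a gene past the 24 h test. The rows of both sensors, Ifit3, Usp18 and Iigp1 are mostly blue at ZT13 and ZT17, whereas those of Stat2, Oasl1, Bst2 and Irgm1 are mostly blue at ZT5 and ZT9.

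Of the 38 members, 21 (55.3%) were called rhythmic with a 24 h cosine, against 36.8% of the 14449 genes tested (limma F test on log2(value + 1), Benjamini–Hochberg adjusted p below 0.05). Without replicate 3 of ZT5 the count was 18, of which 16 were also among the 21. In that fit 4968 of all genes were called, in place of 5320. The genes tested include some with a mean value under 1, which no member had. With only the 12480 genes of a mean value of at least 1 tested, 5325 genes were called, and the same 21 members. The fitted peak of 13 of these members was in the light, between 0 and 9 h, and that of the other 8 was in the dark, between 14 and 24 h. Among all genes, 18.6% were called with a peak in the light and 18.2% with a peak in the dark. The lowest mean of the called members was at ZT17 for 9, at ZT13 for 5, at ZT5 for 4 and at ZT9 for 3, and at ZT1 or ZT21 for 0. The highest mean was at ZT9 for 8 of them. The same counts over all called genes are not given here, so these times cannot be read as a trait of the members. The median amplitude was 0.22 on the log2 scale over all 38 members and 0.16 over all genes. Amplitude is the distance from the mean to the peak of the cosine, on the log2(value + 1) scale, which understates the change of genes with low values. Adjusted p-values below are from limma, or from the rank test JTK where it is named, and are adjusted over all genes tested. The tests among the times and of dark against light are set against the spread between mice of the same time. The spread used for the cosine, in its p-values and SEs, also holds any departure of the time means from a cosine. Amplitudes, peaks and differences are given ± SE, and mean levels ± SD.

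A test for any difference among the 6 times, which assumes no shape, called 19 of 38 members (29.2% of all genes), or 17 without replicate 3 of ZT5. The count of all genes without that liver is not given here for this test. With all livers, the test added Irf7, Ifit1 and Rtp4 to the list of the cosine, for 24 members called by one or the other (39.7% of all genes). In 32 of 38 members the 3 livers of the highest time were all above the 3 livers of the lowest time (70.8% of all genes). The dark livers as a group were lower than the light livers in 13 members and higher in 5, where 12.9% of all genes were called lower and 12.9% higher. Without replicate 3 of ZT5 these counts were 13 and 6, with 3477 of all genes called in either direction in place of 3715. With only the 12480 genes of a mean value of at least 1 tested, 3780 genes were called in either direction. The median difference of log2(value + 1), dark minus light, was -0.20 on the log2 scale over the 38 members and -0.007 over all genes. It was -0.26 over 10 markers of Kupffer cells and macrophages, -0.25 over 5 of sinusoidal endothelium and -0.29 over 4 of B cells. It was -0.14 over 3 markers of neutrophils, -0.088 over 4 of stellate cells, -0.011 over 2 of dendritic cells and 0.002 over 3 of T and NK cells. Over 6 markers of hepatocytes it was 0.11, and over 2 of cholangiocytes 0.24. The members' median lay within the range of these lists. That range is wide and rests on 2 to 10 markers per list, so nothing is drawn from it. JTK, a rank test that looks for cosine orders of 20, 24 and 28 h, called 5 members, namely Ifih1, Rsad2, Irgm1, Iigp1 and Tapbp (14.1% of all genes), all of which were among the 21. Its count was 3 without replicate 3 of ZT1. It was 12 when equal cosines counted as 1 group in the null distribution, a setting chosen after seeing the data. The share of all genes in that setting is not given here, so the 12 cannot be set against the 14.1%. A term of 12 h was called for 1 member, Usp18 (1.22% of all genes). In whole liver, fewer cells of a type and less RNA per cell cannot be told apart in any of these values.

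**Figure D2:**
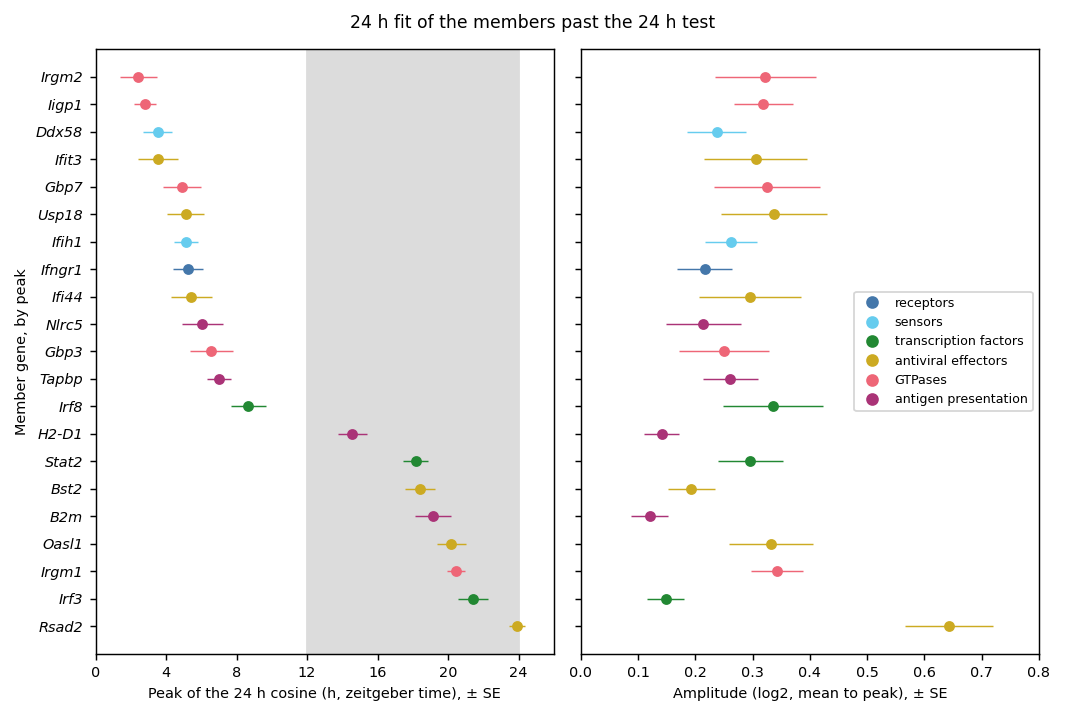
Peak time of the fitted 24 h cosine (left, hours of zeitgeber time, dark hours shaded) and amplitude (right, log2) of the 21 members past the 24 h test, ordered by peak and coloured by role. Points are estimates and bars are standard errors from 18 livers. Peaks lie before 9 h for 13 members and after 14 h for 8, and the amplitude of Rsad2 is 0.64 ± 0.077.

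The sequences upstream of the start of transcription are shown for the 6 called members of largest amplitude among those with a RefSeq promoter. The fitted peak was in the light for Irf8, Gbp7 and Irgm2, and in the dark for Rsad2, Irgm1 and Oasl1. Motifs of 3 kinds were searched on both strands. The ISRE core, which is GAAA, any 2 bases and GAAA, is the heart of the element bound by the factor of STAT2 and IRF9 and by other IRF proteins, TTCNNNGAA is the element bound by STAT dimers, and CACGTG is the E-box bound by the clock proteins CLOCK and BMAL1. The last 2 read the same on both strands. Each sequence holds the 250 bases before the start, from RefSeq on GRCm38.p6, 5′ to 3′ on the strand of the gene, with motif matches in capitals.
Rsad2, chr12:26456453-26456702, minus strand: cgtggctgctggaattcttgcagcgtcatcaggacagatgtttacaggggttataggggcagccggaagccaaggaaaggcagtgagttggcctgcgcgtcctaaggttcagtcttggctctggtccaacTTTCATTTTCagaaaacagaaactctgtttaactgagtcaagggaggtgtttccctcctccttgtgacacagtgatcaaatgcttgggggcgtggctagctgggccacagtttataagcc
Irgm1, chr11:48871421-48871670, minus strand: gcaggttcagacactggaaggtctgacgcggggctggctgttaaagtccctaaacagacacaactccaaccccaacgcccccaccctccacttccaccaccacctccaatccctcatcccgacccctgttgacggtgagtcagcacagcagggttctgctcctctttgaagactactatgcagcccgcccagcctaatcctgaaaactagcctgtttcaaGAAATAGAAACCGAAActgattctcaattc
Irf8, chr8:120736108-120736357, plus strand, first start: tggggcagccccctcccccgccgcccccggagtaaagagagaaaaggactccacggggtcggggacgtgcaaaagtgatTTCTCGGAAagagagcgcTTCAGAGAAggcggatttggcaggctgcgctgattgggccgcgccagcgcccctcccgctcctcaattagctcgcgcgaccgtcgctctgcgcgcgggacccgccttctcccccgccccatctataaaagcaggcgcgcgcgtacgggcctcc
Oasl1, chr5:114922990-114923239, plus strand: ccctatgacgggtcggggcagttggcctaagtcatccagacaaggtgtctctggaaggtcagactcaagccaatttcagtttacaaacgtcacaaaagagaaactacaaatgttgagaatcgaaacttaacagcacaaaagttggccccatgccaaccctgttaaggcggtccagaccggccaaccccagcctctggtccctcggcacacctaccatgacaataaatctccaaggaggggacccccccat
Gbp7, chr3:142530086-142530335, plus strand: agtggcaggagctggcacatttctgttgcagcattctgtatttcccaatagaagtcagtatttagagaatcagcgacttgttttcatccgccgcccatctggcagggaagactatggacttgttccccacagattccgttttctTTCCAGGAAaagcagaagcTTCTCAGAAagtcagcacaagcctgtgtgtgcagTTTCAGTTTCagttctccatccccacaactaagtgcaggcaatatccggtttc
Irgm2, chr11:58214727-58214976, plus strand: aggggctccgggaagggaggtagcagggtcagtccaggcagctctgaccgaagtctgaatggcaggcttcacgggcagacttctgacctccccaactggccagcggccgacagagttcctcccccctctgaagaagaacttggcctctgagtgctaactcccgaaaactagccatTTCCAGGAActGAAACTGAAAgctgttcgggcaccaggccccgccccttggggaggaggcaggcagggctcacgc

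Counted from the start of transcription, the ISRE core began at -120 in Rsad2, at -30 and -24 in Irgm1, where the matches overlap, at -53 in Gbp7 and at -64 in Irgm2. TTCNNNGAA began at -171 and -153 in Irf8, at -106 and -87 in Gbp7 and at -75 in Irgm2, where the 2 motifs do not overlap. Oasl1 and the other start of Irf8 held none of the 3 motifs in this window. Over 250 bases before and 50 after the start, 16 of the 32 members with a RefSeq promoter held the ISRE core, compared with 3.99% of all 27025 genes with a promoter. TTCNNNGAA was in 10 of 32 members (31.2%) and in 9.55% of genes, and CACGTG was in 0 of 32 members and in 8.09% of genes. Of the called members, the ISRE core was in 6 of 10 with a peak in the light and in 5 of 8 with a peak in the dark. A match is a description of the letters and not of binding. Oas2, Usp18, Rtp4, Iigp1, Tap2 and Nlrc5 were not matched to a promoter.

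Of the receptor chains, Ifngr1, which binds interferon gamma (chr10:19591949-19610229 of GRCm38), was at 16.4, 13.8 and 15.4 at ZT1, 19.7, 18.4 and 18.4 at ZT5, and 16.6, 16.9 and 13.7 at ZT9. In the dark it was at 13.98, 14.7 and 13.2 at ZT13, 11.7, 11.5 and 15.8 at ZT17, and 14.2, 13.2 and 14.4 at ZT21. All 3 livers of ZT5 were above every other liver, while at ZT17 2 livers were the lowest of all and the third lay within the range of ZT1. The cosine had a peak at 5.23 ± 0.864 h and an amplitude of 0.22 ± 0.049 (adjusted p = 0.00558), and dark minus light was -0.26 ± 0.069 (adjusted p = 0.00960). Ifnar1, the chain for type I interferons, ranged from 26.8 to 37.2 over the 18 livers, its times overlapped, and no test called it (amplitude 0.074 ± 0.038, adjusted p = 0.275).

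Both sensors, helicases that bind viral RNA in the cytosol, were higher in the light. Ifih1, which encodes MDA5 (chr2:62595798-62646255), was at 40.4, 40.2 and 36.6 at ZT1, 44.2, 42.2 and 43.9 at ZT5, and 38.5, 47.9 and 46.7 at ZT9. In the dark Ifih1 was at 27.1, 32.7 and 35.2 at ZT13, 28.6, 34.4 and 30.4 at ZT17, and 33.4, 36.4 and 35.2 at ZT21. Every light liver was above every dark liver. Such a separation, in either direction, held for 0.900% of all genes and for no other member. The peak of Ifih1 was at 5.12 ± 0.658 h with an amplitude of 0.26 ± 0.045 (adjusted p = 0.000511, JTK 0.0226), and dark minus light was -0.37 ± 0.059 (adjusted p = 0.000185). Ddx58, which encodes RIG-I (chr4:40203773-40239828), was at 30.003, 27.1 and 31.02 at ZT1, 35.5, 29.02 and 34.9 at ZT5, and 25.2, 31.5 and 31.9995 at ZT9. In the dark Ddx58 was at 19.98, 26.8 and 22.4 at ZT13, 21.4, 22.5 and 27.03 at ZT17, and 28.1, 30.1 and 27.98 at ZT21. The 6 livers of ZT13 and ZT17 were below every liver of ZT1, ZT5 and ZT21, by the narrowest of gaps to ZT1, and 1 liver of ZT9 fell among them. Its peak was at 3.52 ± 0.823 h (amplitude 0.24 ± 0.051, adjusted p = 0.00381), and dark minus light was -0.28 ± 0.070 (adjusted p = 0.00631).

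Of the 6 transcription factors, 3 were called by the cosine, against 36.8% of all genes. Stat2, a partner of IRF9 in the factor that type I interferon activates (chr10:128270559-128292849), was at 67.1, 61.9 and 63.996 at ZT1, 42.7, 52.2 and 52.1 at ZT5, and 67.4, 44.3 and 54.9 at ZT9. In the dark it was at 64.5, 78.9 and 62.7 at ZT13, 78.02, 82.3 and 65.4 at ZT17, and 82.4, 60.7 and 74.8 at ZT21. All livers of ZT5 were below all 9 dark livers and below the livers of ZT1, and ZT9 spread across both. The peak was at 18.2 ± 0.736 h with an amplitude of 0.30 ± 0.057 (adjusted p = 0.00147), and dark minus light was 0.36 ± 0.081 (adjusted p = 0.00316). Irf9, its partner, ranged from 27.3 to 36.95 and was not called (amplitude 0.11 ± 0.044, adjusted p = 0.118).

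Irf3, which RNA sensing activates to switch on the gene of interferon beta (chr7:44997648-45002848), was at 52.6, 53.9 and 55.7 at ZT1, 41.9, 43.9 and 46.96 at ZT5, and 44.2, 43.6 and 44.5 at ZT9. At the dark times Irf3 was at 49.4, 46.7 and 44.97 at ZT13, 50.5, 51.96 and 44.5 at ZT17, and 56.7, 51.3 and 52.6 at ZT21. The livers of ZT1 and ZT21 were all above those of ZT5 and ZT9, and the peak was at 21.4 ± 0.839 h (amplitude 0.15 ± 0.033, adjusted p = 0.00443). The annotated end of Irf3 overlaps Bcl2l12 on the other strand by 1065 bases, and whether the counting used strand is not given in the sources used here.

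Irf8, a factor of macrophages, dendritic cells and B cells (chr8:120736358-120756694), was at 6.96, 4.14 and 4.44 at ZT1, 8.31, 5.22 and 7.39 at ZT5, and 7.53, 9.64 and 7.73 at ZT9. In the dark livers its values were 8.07, 5.03 and 7.51 at ZT13, 4.63, 4.11 and 5.46 at ZT17, and 3.75, 7.001 and 5.07 at ZT21. The 3 livers of ZT9 were above all those of ZT17 and ZT21 but overlapped those of ZT5 and ZT13. The peak was at 8.65 ± 0.998 h (amplitude 0.34 ± 0.088, adjusted p = 0.0155), and the test among the 6 times did not call it (adjusted p = 0.0898). Irf8 lies within the overlapping gene Gm20388 on the same strand, so its reads may be divided between them.

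Irf7, which amplifies the response (chr7:141262706-141266481), was at 28.2, 29.8 and 24.7 at ZT1, 25.4, 32.8 and 24.5 at ZT5, and 38.01, 41.8 and 38.7 at ZT9. It was at 33.6, 31.4 and 31.5 at ZT13, 27.3, 28.6 and 32.9 at ZT17, and 31.3, 31.1 and 31.1 at ZT21 in the dark. All livers of ZT9 were above the other 15, which the test among the times called (adjusted p = 0.00727) and the cosine did not (adjusted p = 0.0856). Irf1, a factor that interferon gamma raises, was at 34.4 ± 4.58 at ZT5 and 25.6 ± 5.40 at ZT21 (SD, n = 3), and was not called (adjusted p = 0.0659, cosine).

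**Figure D3:**
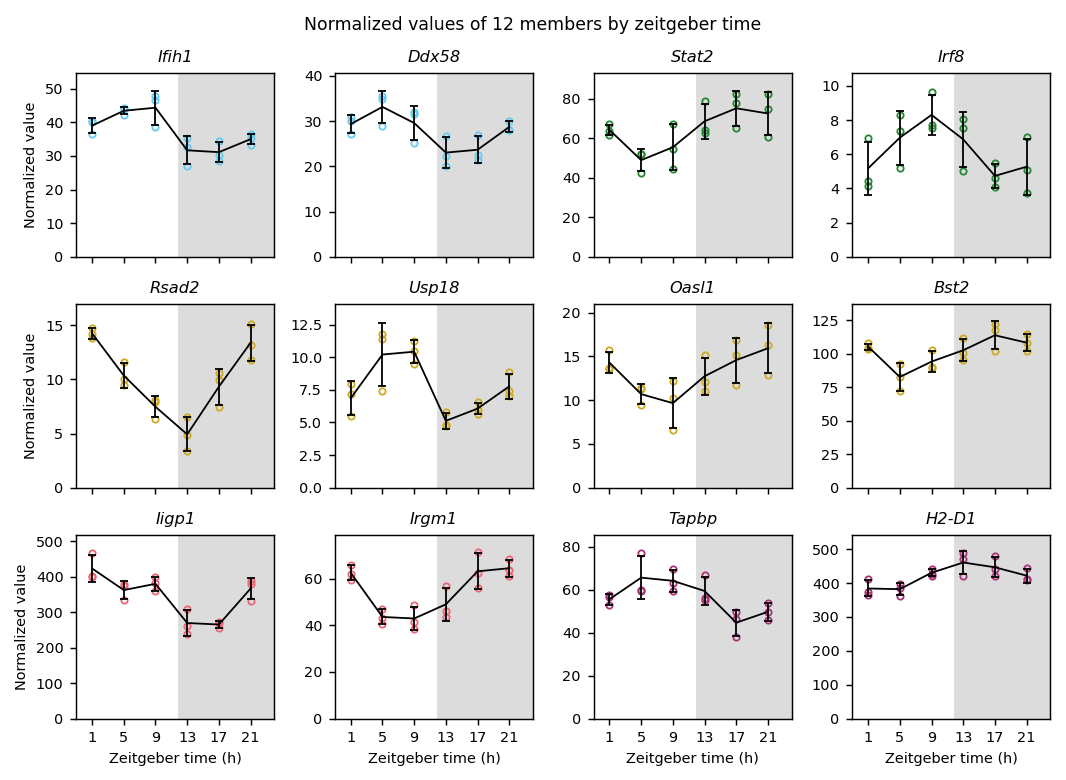
Normalized values of 12 members against zeitgeber time, with 1 open circle per liver and the mean ± SD of 3 livers as a line, dark hours shaded and each vertical axis starting at 0. Ifih1, Ddx58, Usp18 and Iigp1 are low at ZT13 and ZT17, whereas Stat2, Oasl1, Bst2 and Irgm1 are low at ZT5 and ZT9.

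Rsad2 had the largest amplitude of the 38 members. It encodes viperin, an enzyme that makes a chain terminator of viral RNA synthesis (chr12:26442746-26456452, minus strand, with the motif shown above). Rsad2 was at 13.8, 14.8 and 14.2 at ZT1, 9.44, 10.003 and 11.6 at ZT5, and 8.13, 6.38 and 7.92 at ZT9. In the dark it was at 3.40, 4.82 and 6.56 at ZT13, 7.44, 9.99 and 10.6 at ZT17, and 11.8, 13.2 and 15.1 at ZT21. Values were high at ZT21 and ZT1 and lowest at ZT13, and all livers of ZT1 were above all those of ZT5, ZT9, ZT13 and ZT17. The mean at ZT1 was 2.89 times that at ZT13, with an amplitude of 0.64 ± 0.077 and a peak at 23.9 ± 0.458 h (adjusted p = 1.03e-05, JTK 0.00863). The amplitude was 0.56 to 0.67 with any 1 liver left out. Dark against light was not called (adjusted p = 0.0621), with ZT21 high and ZT9 low.

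Usp18, a protease that removes ISG15 from proteins and dampens the type I receptor (chr6:121245906-121270917), was at 7.16, 7.96 and 5.46 at ZT1, 7.42, 11.4 and 11.8 at ZT5, and 10.5, 11.3 and 9.49 at ZT9. In the dark Usp18 was at 4.80, 5.83 and 4.73 at ZT13, 5.96, 5.67 and 6.54 at ZT17, and 8.84, 7.41 and 7.03 at ZT21. The 6 livers of ZT13 and ZT17 were below those of ZT5, ZT9 and ZT21 and overlapped ZT1. The cosine peaked at 5.10 ± 1.06 h (amplitude 0.34 ± 0.093, adjusted p = 0.0220), dark minus light was -0.46 ± 0.095 (adjusted p = 0.00159) and the term of 12 h was just past the threshold (adjusted p = 0.0484). The 12 h call was lost in 17 of the 18 fits with 1 liver left out, all but that without replicate 1 of ZT5, and the 24 h call was lost without replicate 2 or 3 of ZT5 (adjusted p up to 0.0606).

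The Ifit genes encode proteins that hold foreign RNA. Ifit3 (chr19:34583531-34588731) was at 13.6, 16.5 and 11.5 at ZT1, 11.7, 13.7 and 17.5 at ZT5, and 13.9, 17.95 and 16.9 at ZT9. At ZT13 and after, Ifit3 was at 6.41, 9.05 and 11.02 at ZT13, 10.2, 11.3 and 9.15 at ZT17, and 15.7, 12.5 and 13.2 at ZT21. The 6 livers of ZT13 and ZT17 were below the other 12, the peak was at 3.54 ± 1.12 h (amplitude 0.31 ± 0.089, adjusted p = 0.0310), and dark minus light was -0.42 ± 0.10 (adjusted p = 0.00567). The cosine call of Ifit3 was lost without replicate 2 of ZT1, replicate 3 of ZT5, replicate 1 or 2 of ZT13, or replicate 1 or 3 of ZT17 (adjusted p up to 0.0680). Ifit1 (chr19:34640871-34650009) was at 9.50, 8.86 and 11.3 at ZT1, 7.98, 7.70 and 10.8 at ZT5, and 9.31, 9.83 and 12.5 at ZT9. In the dark Ifit1 was at 2.83, 6.39 and 7.59 at ZT13, 6.60, 8.68 and 6.48 at ZT17, and 10.5, 9.07 and 13.8 at ZT21. Its livers of ZT13 were all below those of ZT1, ZT5 and ZT9, and it was called among the times (adjusted p = 0.0297) but not by the cosine (adjusted p = 0.0850). Ifit2 was at 5.71 ± 1.41 in the light and 4.08 ± 0.993 in the dark (SD, n = 9), a difference of -0.40 ± 0.14 (adjusted p = 0.0390, up to 0.0878 with 1 liver left out), and the cosine did not call it (adjusted p = 0.0767). Replicate 2 of ZT17 was the lowest of the 18 livers for 8 members, and replicate 1 of ZT13 for 7, among them 4 of the 14 effectors. Without replicate 2 of ZT17 the cosine called 19 members, and 10 were lower and 4 higher in the dark. In that fit the cosine called 4823 of all genes in place of 5320. Dark against light called 3430 of all genes in place of 3715.

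Oasl1 and Bst2 were higher in the dark. Oasl1, of the family of oligoadenylate synthetases (chr5:114923240-114937915), was at 13.6, 15.7 and 13.5 at ZT1, 11.4, 9.40 and 11.3 at ZT5, and 10.3, 6.57 and 12.1 at ZT9. In the dark Oasl1 was at 12.1, 10.98 and 15.1 at ZT13, 11.8, 16.8 and 15.1 at ZT17, and 16.3, 12.9 and 18.6 at ZT21. The livers of ZT5 and ZT9 were all below those of ZT1 and ZT21, and the peak was at 20.2 ± 0.842 h (amplitude 0.33 ± 0.073, adjusted p = 0.00456). Bst2, or tetherin, which holds new virions at the cell surface (chr8:71534255-71537456), was at 104, 108 and 105 at ZT1, 83.05, 92.8 and 72.3 at ZT5, and 103, 89.3 and 90.3 at ZT9. In the dark Bst2 was at 112, 100.4 and 95.8 at ZT13, 102, 122 and 118 at ZT17, and 115, 102 and 108 at ZT21. All livers of ZT5 were below all dark livers and those of ZT1, with a peak at 18.4 ± 0.825 h (amplitude 0.19 ± 0.042, adjusted p = 0.00389). Dark minus light was 0.31 ± 0.11 for Oasl1 (adjusted p = 0.0401, up to 0.0963 in the 12 of 24 other settings that lost it) and 0.21 ± 0.055 for Bst2 (adjusted p = 0.00952). Oasl2, the paralog of Oasl1, was at 6.31 ± 0.553 at ZT9 and 3.19 ± 0.864 at ZT17 and was not called (adjusted p = 0.125). Within a liver, the ratio of Oasl2 to Oasl1 was 0.711 ± 0.303 at ZT9 and 0.223 ± 0.0645 at ZT17, and this ratio does not depend on how libraries were scaled. It is a description with no test, and whether the quantification divided reads between these paralogs was not tested.

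Ifi44, an interferon-stimulated protein with a GTPase-like domain (chr3:151730922-151749960), was at 5.44, 4.14 and 3.28 at ZT1, 5.23, 4.68 and 4.26 at ZT5, and 3.70, 8.25 and 4.92 at ZT9. In the dark livers Ifi44 was at 3.65, 3.94 and 2.79 at ZT13, 2.35, 3.33 and 2.75 at ZT17, and 3.44, 4.40 and 4.22 at ZT21. The highest value was that of replicate 2 of ZT9, and the 3 livers of ZT17 were below all light livers but 1. Dark minus light was -0.39 ± 0.12 (adjusted p = 0.0258, up to 0.0593 without replicate 1 of ZT1), and the cosine call (adjusted p = 0.0372, peak 5.42 h, amplitude 0.30 ± 0.089) was lost without replicate 1 of ZT1, ZT5 or ZT21, replicate 3 of ZT9 or ZT13, or any replicate of ZT17 (adjusted p up to 0.0978). Rtp4, a chaperone of receptors (chr16:23520291-23614222), was at 12.7, 10.2 and 11.8 at ZT1, 13.3, 11.3 and 10.6 at ZT5, and 14.9, 11.8 and 11.3 at ZT9. In the dark Rtp4 was at 8.89, 9.75 and 9.42 at ZT13, 10.2, 8.78 and 10.6 at ZT17, and 15.1, 13.4 and 14.4 at ZT21. All livers of ZT21 were above those of ZT13 and ZT17, and the test among the times called it (adjusted p = 0.0154) while the cosine did not (adjusted p = 0.159). Isg15, the ubiquitin-like modifier, ranged from 4.06 to 7.92, Oas1a from 1.73 to 4.92, Oas2 from 1.61 to 5.51 and Ifi35 from 16.4 to 25.7, and none of these 4 was called in any of the tests of the 24 h cosine, the times, and dark against light (lowest adjusted p = 0.0857, for Oas2 among the times).

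The GTPases attach to vacuoles that hold bacteria or parasites. Irgm1, a regulator of the other immunity-related GTPases (chr11:48861968-48871683), was at 65.9, 62.1 and 59.5 at ZT1, 40.7, 42.9 and 47.02 at ZT5, and 48.5, 38.6 and 41.6 at ZT9. In the dark Irgm1 was at 43.7, 57.02 and 46.2 at ZT13, 71.2, 55.8 and 62.4 at ZT17, and 61.1, 63.8 and 68.4 at ZT21. The livers of ZT5 and ZT9 were all below those of ZT1, ZT17 and ZT21, and ZT13 overlapped both sets. The peak was at 20.5 ± 0.512 h with an amplitude of 0.34 ± 0.046 (adjusted p = 3.87e-05, JTK 0.0431), and dark minus light was 0.25 ± 0.063 (adjusted p = 0.00743).

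Irgm2, a paralog (chr11:58199618-58222782), was at 58.3, 45.96 and 43.02 at ZT1, 55.8, 49.8 and 51.8 at ZT5, and 72.9, 43.9 and 35.3 at ZT9. At the dark times Irgm2 was at 36.4, 32.5 and 27.8 at ZT13, 34.3, 31.4 and 44.6 at ZT17, and 42.6, 56.1 and 59.7 at ZT21. All livers of ZT13 were below all those of ZT1 and ZT5, and the livers of ZT9 spread over the whole range of the gene but for its lowest values. Its peak was at 2.42 ± 1.05 h (amplitude 0.32 ± 0.088, adjusted p = 0.0212), and dark minus light was -0.33 ± 0.12 (adjusted p = 0.0432, up to 0.0948 in the 12 of 24 other settings that lost it). The cosine call was lost without replicate 3 of ZT13 (adjusted p = 0.0572). The ratio of Irgm2 to Irgm1 within a liver was 1.21 ± 0.141 at ZT5 and 0.587 ± 0.118 at ZT17, as a description. Irgm2 shares 7974 bases of GENCODE annotation with Igtp on the same strand, and both were highest in replicate 1 of ZT9. The RefSeq start used for the printed promoter of Irgm2 differs from the GENCODE start. That promoter lies inside the GENCODE span of Irgm2 and outside that of Igtp. Igtp, which encodes IRGM3, ranged from 18.6 to 46.8 and was not called (adjusted p = 0.618).

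Iigp1, an effector GTPase that coats the vacuole of Toxoplasma, was at 467, 399.5 and 402 at ZT1, 334, 379 and 373 at ZT5, and 399, 381 and 359 at ZT9. In the dark Iigp1 was at 237, 309 and 261 at ZT13, 269, 271 and 255 at ZT17, and 389, 332 and 378 at ZT21. The 6 livers of ZT13 and ZT17 were below the other 12, and the livers of ZT21 were back in the range of ZT5 and ZT9 or just under it. The peak was at 2.80 ± 0.622 h with an amplitude of 0.32 ± 0.052 (adjusted p = 0.000296, JTK 0.0278). Dark minus light was -0.39 ± 0.055 (adjusted p = 5.82e-05), the lowest adjusted p of the members in that comparison.

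The guanylate-binding proteins are larger GTPases of the same defence. Gbp7 (chr3:142530342-142550149) was at 20.1, 15.8 and 15.3 at ZT1, 13.03, 17.1 and 20.6 at ZT5, and 18.1, 17.4 and 21.5 at ZT9. In the dark Gbp7 was at 12.5, 12.6 and 17.3 at ZT13, 6.68, 12.2 and 10.9 at ZT17, and 15.6, 14.5 and 18.1 at ZT21. All livers of ZT17 were below all light livers, and replicate 1 of ZT17 was the lowest of the 18. The peak was at 4.89 ± 1.09 h (amplitude 0.32 ± 0.093, adjusted p = 0.0265), and dark minus light was -0.41 ± 0.11 (adjusted p = 0.0121). The cosine call of Gbp7 was lost without replicate 3 of ZT5 or replicate 1 or 3 of ZT17 (adjusted p up to 0.0743). Gbp3 (chr3:142560026-142573209) was at 7.27, 5.13 and 5.52 at ZT1, 6.28, 6.14 and 6.52 at ZT5, and 8.85, 7.07 and 6.94 at ZT9. In the dark Gbp3 was at 6.23, 6.50 and 4.73 at ZT13, 4.64, 3.46 and 4.66 at ZT17, and 3.94, 7.03 and 6.33 at ZT21. All livers of ZT17 were below all light livers, and the peak was at 6.56 ± 1.20 h (amplitude 0.25 ± 0.079), but the call was just past the threshold (adjusted p = 0.0463) and was lost without any replicate of ZT9 or ZT17, replicate 3 of ZT1 or ZT5, replicate 1 or 3 of ZT13, or replicate 1 of ZT21 (adjusted p up to 0.117). Dark minus light for Gbp3 was -0.30 ± 0.11 (adjusted p = 0.0465, up to 0.102 in the 13 of 24 other settings that lost it, the highest without replicate 1 of ZT1). Gbp2 ranged from 2.12 to 6.22 and was not called (adjusted p = 0.247). Replicate 1 of ZT1 was the highest liver of its time for 7 of the 7 GTPases and replicate 1 of ZT9 for 6 of 7, as a description.

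**Figure D4:**
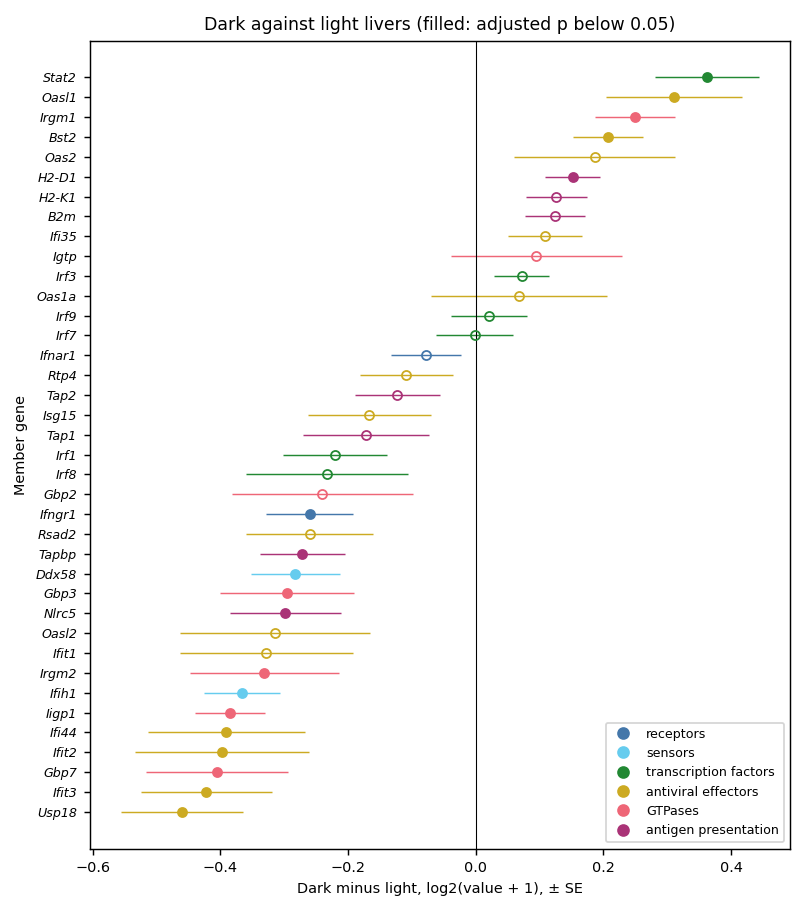
Difference between the 9 dark and the 9 light livers for each of the 38 members, as log2(value + 1), dark minus light, with standard errors as bars, ordered by size and coloured by role. Filled points are past the threshold. The 13 called lower in the dark include both sensors, and the 5 called higher are Stat2, Oasl1, Irgm1, Bst2 and H2-D1.

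In antigen presentation 4 of 7 genes were called by the cosine (36.8% of all genes), 2 with a peak in the light (18.6% of all genes) and 2 in the dark (18.2%). Tapbp, or tapasin, which bridges class I to the peptide transporter (chr17:33915899-33929292), was at 52.8, 56.4 and 57.5 at ZT1, 77.2, 59.6 and 60.1 at ZT5, and 59.5, 69.7 and 63.3 at ZT9. In the dark Tapbp was at 67.01, 55.1 and 56.2 at ZT13, 46.3, 37.98 and 49.8 at ZT17, and 45.7, 53.9 and 49.5 at ZT21. All livers of ZT5 and ZT9 were above all those of ZT17 and ZT21, with a peak at 6.997 ± 0.699 h and an amplitude of 0.26 ± 0.048 (adjusted p = 0.000913, JTK 0.0226). Dark minus light was -0.27 ± 0.066 (adjusted p = 0.00570). The annotation of Tapbp overlaps Zbtb22 on the same strand by 3422 bases. Nlrc5, the transactivator of class I genes (chr8:94434356-94527272), was at 18.4, 16.3 and 18.2 at ZT1, 15.04, 20.2 and 21.2 at ZT5, and 24.5, 18.6 and 22.6 at ZT9. In the dark Nlrc5 was at 13.1, 17.3 and 16.5 at ZT13, 12.5, 14.1 and 17.2 at ZT17, and 14.3, 16.9 and 18.7 at ZT21. The livers of ZT9 were all above those of ZT13 and ZT17, and dark minus light was -0.30 ± 0.087 (adjusted p = 0.0173). The cosine call (peak 6.04 h, amplitude 0.21 ± 0.065, adjusted p = 0.0389) was lost without replicate 2 or 3 of ZT5, replicate 1 or 3 of ZT9, replicate 1 or 2 of ZT17, or replicate 1 of ZT21 (adjusted p up to 0.09996).

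H2-D1, a class I heavy chain (chr17:35262730-35267499), was at 366, 375 and 411 at ZT1, 363, 387 and 396 at ZT5, and 422, 441 and 428 at ZT9. In the dark H2-D1 was at 488, 472 and 422 at ZT13, 441, 420.1 and 479 at ZT17, and 411, 446 and 409 at ZT21. All livers of ZT5 were below all dark livers, and the peak was at 14.6 ± 0.810 h with an amplitude of 0.14 ± 0.030 (adjusted p = 0.00333), and dark minus light was 0.15 ± 0.044 (adjusted p = 0.0154). B2m, the light chain (chr2:122147686-122153083), was at 1363, 1415 and 1325 at ZT1, 1175, 1248 and 1313 at ZT5, and 1292, 1224 and 1225 at ZT9. In the dark B2m was at 1234, 1444 and 1311 at ZT13, 1431, 1461 and 1509 at ZT17, and 1527, 1338 and 1376 at ZT21. All livers of ZT17 were above all those of ZT5 and ZT9, and the amplitude of 0.12 ± 0.033 was the smallest of the 21 called members (peak 19.2 h, adjusted p = 0.0197). With columns scaled to equal totals, B2m was not called (adjusted p = 0.129), nor was dark minus light for H2-D1 (adjusted p = 0.153). H2-K1, the other heavy chain, was at 1054 ± 77.97 in the light and 1148 ± 48.6 in the dark and was not called (adjusted p = 0.0627), and heavy chains share long stretches of sequence among which reads may be divided. The transporter genes Tap1 (15.2 to 28.8) and Tap2 (15.1 to 22.9) were not called either (adjusted p = 0.229 and 0.0674).

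Of 83 other genes of these pathways with a row, 36 (43.4%) were called by the cosine, near the 36.8% of all genes, 23 with a peak in the light and 13 in the dark (18.6% and 18.2% of all genes). Dark livers were lower in 15 and higher in 6 of the 83, where 12.9% of all genes were lower and 12.9% higher. The genes of interferon beta, interferon alpha 4 and interferon gamma were not analysed here. In signal transduction 6 of 8 were called, including Tyk2, the kinase bound to the type I receptor (peak 3.61 h, amplitude 0.31 ± 0.046, adjusted p = 0.000129) and Jak2, that of the interferon gamma receptor (peak 4.68 h, amplitude 0.28 ± 0.051, adjusted p = 0.000955). Effectors were called in 14 of 29, GTPases in 4 of 8, class I genes in 9 of 19, sensors in 2 of 8 and receptors in 1 of 3. Of the 8 genes of class II presentation, limma called 0, with 0 at an unadjusted p below 0.05 and 0 by JTK.

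The largest amplitude of these genes was that of Socs3, an inhibitor of JAK kinases, with 14.5 ± 0.991 at ZT9 and 4.79 ± 3.17 at ZT17 (amplitude 0.82 ± 0.17, adjusted p = 0.00300). Next were Gbp10 (amplitude 0.70 ± 0.15, peak 2.09 h) and Cmpk2, a mitochondrial kinase whose gene starts 12752 bases from Rsad2 on the other strand. Cmpk2 was at 12.1, 12.2 and 12.2 at ZT1, 5.80, 7.17 and 6.10 at ZT5, and 3.45, 6.08 and 5.86 at ZT9. In the dark it was at 3.57, 6.19 and 5.60 at ZT13, 5.59, 7.66 and 8.52 at ZT17, and 10.2, 13.05 and 13.1 at ZT21. Its peak at 22.7 ± 0.473 h and amplitude of 0.65 ± 0.081 (adjusted p = 1.5e-05) stood beside 23.9 ± 0.458 h and 0.64 ± 0.077 for Rsad2. Both neighbours had their highest mean at ZT1 and their lowest at ZT13, but for Cmpk2 ZT21 overlapped ZT1 and ZT9 overlapped ZT13. The ratio of Rsad2 to Cmpk2 within a liver was 1.64 ± 0.257 at ZT5 and 0.968 ± 0.196 at ZT13, as a description. Others were the GTPases Tgtp1 (peak 2.53 h) and Ifi47 (peak 23.6 h), the helicase Ddx60 (peak 3.44 h) and the class I gene H2-Q6 (peak 17.6 h), with amplitudes from 0.39 ± 0.050 to 0.54 ± 0.13.

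Markers of the other liver cells were followed because many members are also active in them. Of 10 markers of Kupffer cells and macrophages, 5 were called by the cosine (36.8% of all genes), with peaks between 8 and 9 h. The test among the 6 times called 2 of these 10 markers (29.2% of all genes), and JTK called 0 (14.1% of all genes). Over the 3 livers of a time their summed value was 180.4 to 341 at ZT1, 289 to 390.4 at ZT5 and 303 to 364 at ZT9. In the dark it was 277 to 367 at ZT13, 152 to 343 at ZT17 and 152 to 238 at ZT21. The mean sum was 333 ± 52.1 at ZT5 and 335 ± 30.5 at ZT9, and the mean at ZT13, 310.4 ± 49.6, lay within their spread. At ZT17 the mean sum was 249 ± 95.8, and that of the endothelial markers was 119 ± 37.5. Replicate 2 of ZT17, with 152 for the Kupffer cell sum and 78.5 for the endothelial sum, was the lowest liver for the endothelial sum and the next to lowest for the Kupffer cell sum. The Kupffer cell mean was 255 ± 80.9 at ZT1 and was lowest at ZT21, 206 ± 47.3 (SD, n = 3). Sinusoidal endothelium had 2 of 5 markers called by the cosine, and its sum was 168 ± 20.3 at ZT5 and 111 ± 25.7 at ZT21. The 4 B cell markers summed to 5.14 ± 0.629 at ZT5 and 2.34 ± 0.964 at ZT13 and the 3 T and NK cell markers to 3.17 ± 0.372 and 4.10 ± 0.198, and 0 of either list were called by the cosine in limma or by JTK (2 B cell markers at an unadjusted p below 0.05 in limma). Neutrophil markers were called by the cosine in 1 of 3, stellate cell markers in 1 of 4, cholangiocyte markers in 2 of 2 and dendritic cell markers in 0 of 2 (1 at an unadjusted p below 0.05, 0 by JTK). Dark minus light was called lower for Cd5l of macrophages (-0.52 ± 0.16, adjusted p = 0.0251), Kdr of endothelium (-0.45 ± 0.15, adjusted p = 0.0287) and Cd79a of B cells (-0.40 ± 0.14, adjusted p = 0.0491). Of the other markers of cell types, S100a9 of neutrophils and Reln of stellate cells were also called lower in the dark, and Ly6g of neutrophils and Hnf4a of hepatocytes higher. None of the listed markers with a row was at 0 throughout, and Cd3e, Cd3g, Ncr1, Flt3 and Xcr1 were not analysed here. The part of these cells in the courses of the members was not tested.

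**Figure D5:**
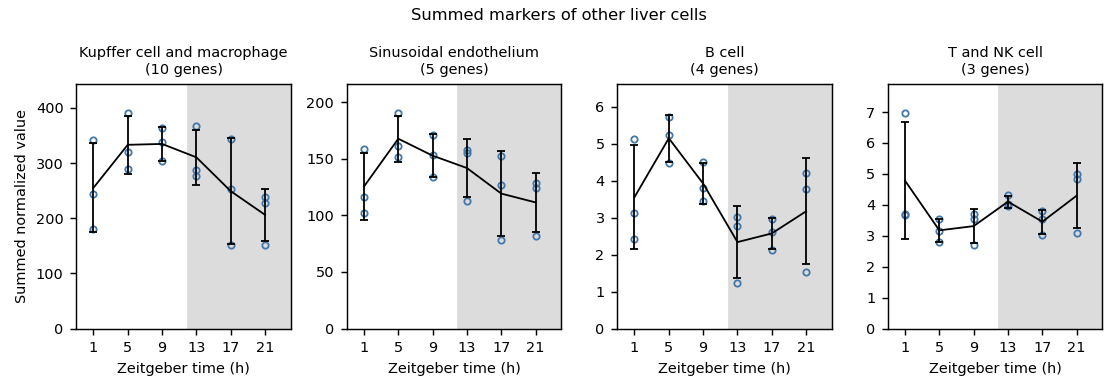
Summed normalized values of the markers of 4 other liver cell types against zeitgeber time, with 1 circle per liver, the mean ± SD of 3 livers as a line and dark hours shaded. The Kupffer cell and macrophage sum is highest at ZT5 and ZT9 and lowest at ZT21, and the B cell sum is lowest at ZT13.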

How the data were processed

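The 18 livers were sequenced from libraries of the NEBNext Ultra RNA kit on a HiSeq2500. Per the labels and the study's methods, the authors trimmed reads with cutadapt, quantified them on GRCm38 transcripts with RSEM (version 1.2.20 in the submitters' processing notes) and normalized with limma. The deposited values are a linear signal. From the values and the study's methods they were read as RSEM's estimated counts with 0.5 added, divided by limma's effective size of each library, and every number of reads given here rests on that reading. The offset and scale are not given in the sources used here. Columns add up to 941088 to 1077230. Only 39.1% to 47.9% of values per liver came out as whole reads (within 0.005 reads), so no count test was used.

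Genes at the lowest value in all livers (2) were left out and 14449 tested, as log2(value + 1). In limma 3.58.1 (R 4.3.3, variance trend) F tests of a 24 h cosine and sine, of the 6 times, and of a 12 h pair beside the 24 h pair were made, and a contrast of 9 dark with 9 light livers, each adjusted by Benjamini–Hochberg over all genes at 0.05. JTK was written anew in Python 3.11.15 with its exact null distribution. Both were tested on simulated data. Replicates were numbered in accession order. Alternatives were pseudocounts of 0.1 and 0, a mean value of at least 1, equal totals, median ratio scaling, no variance trend, and each liver left out. Coordinates are from GENCODE M21 (GRCm38). Full values are given for members past the 24 h test or the test among the times, in order of role, and of other pathway genes past the 24 h test the 8 of largest amplitude are named, except 1 that is not reported here. Members, lists and tests were chosen with earlier results of these data known. Depth (10268168 to 23242842 reads) limits values near the floor, where 809 genes had at least 1 liver.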

Additional observations from a re-analysis of the deposited data

How the results depend on the processing

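No paired analysis was possible because the labels give no number or batch that ties livers of different times together. Of the 21 members called by the cosine, 13 kept the call in all 24 other settings (6 of processing and 18 with 1 liver left out). The other 8 lost it in at least 1, and over all 24 settings, kept or lost, their adjusted p ran from 0.00154 to 0.129. These were Gbp3 (lost in 11), Ifi44 (8), Nlrc5 (7), Ifit3 (6), Gbp7 (3), Usp18 (2), Irgm2 (1, without replicate 3 of ZT13) and B2m (1, equal totals). No direction was reversed. With 1 liver left out, the count of called members was 17 to 22, that among the times 15 to 20, that lower in the dark 9 to 14 and higher 4 to 6, and that of other pathway genes 29 to 38. The fewest, 17, came without replicate 1 of ZT17. With 1 liver left out, the cosine called 4786 to 5284 of all genes, in place of 5320. Dark against light then called 3168 to 3632 of all genes, in place of 3715. With equal totals, 3 members were higher in the dark in place of 5 and 16 lower in place of 13, where the median of all genes was -0.054 in place of -0.007. Of the 18 dark against light calls 12 were kept in every setting, and those of Gbp3, Irgm2 and Oasl1 were lost in 13, 12 and 12 of the 24, those of Ifit2 and Ifi44 in 8 and 4 and that of H2-D1 in 1. By JTK in place of the cosine 5 members were called. JTK gave 3 to 7 with 1 liver left out (3 without replicate 3 of ZT1). It gave 12 when equal cosines counted as 1 group in the null distribution, a setting added after seeing the data and given without its share of all genes. The 12 h call of Usp18 was lost without the variance trend, with 0 members called, and the count was 0 to 1 with 1 liver left out. The cause was not tested in any of these. With 3 livers per time, low values such as Oas1a and Oas2, with 22 to 24 reads in a liver, are the least precise.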
